A study of Mus musculus with 4 samples.

Results

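The transcripts described here encode enzymes of glycolysis: Hk1, Hk2, Gpi1, Pfkl, Pfkp, Aldoa, Tpi1, Pgk1, Eno1 and Ldha. They were taken by gene symbol from count tables of a mouse large pre-B cell line, and all 10 symbols were found among 23420 gene rows. In both groups the line lacked Irf4 and Irf8, transcription factors needed for the step from large to small pre-B cells. The shMyb libraries carried a retroviral hairpin against Myb with a GFP reporter, and the shLuc libraries carried a hairpin against luciferase, a gene that mouse cells do not have, with the same reporter. Cells were grown on OP9 stromal cells with 10 ng/ml of interleukin 7, kept for 72 hours after transduction and sorted for GFP. Each group had 2 libraries from duplicate sets of 12 wells of a single line, and p-values here cover the spread between such sets, not of lines or animals. In RNA from a population, fewer cells with a transcript and less transcript per cell cannot be told apart.

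Glycolysis splits glucose into pyruvate in the cytosol and yields ATP, NADH and carbon for nucleotides, serine and lipids. Hexokinase traps glucose in the cell, phosphofructokinase commits it to the pathway, and lactate dehydrogenase turns pyruvate into lactate and restores NAD+. Large pre-B cells divide under interleukin 7 and the pre-B cell receptor and are known for high glucose use, and the transcription factors Myc and Hif1a are known activators of these enzyme genes.

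The plan of the study was to compare cells with less Myb against controls, but the Myb transcript was not lower where its hairpin was used. Myb was at 617 and 639 CPM in shMyb and at 616 and 600 CPM in shLuc, where CPM are counts scaled to a common library total (log2 fold change 0.046, SE 0.037, edgeR quasi-likelihood adjusted p = 0.283). Every direction below is therefore a difference between libraries labelled shMyb and shLuc. The libraries held 38318335 and 36573743 counts in shMyb and 40701550 and 44682954 counts in shLuc. Of 12610 genes tested, 62.2% were called at an adjusted p below 0.05, 30.6% higher and 31.7% lower in shMyb, and 60.1% of the called genes were higher when libraries were scaled by their totals alone, against 49.1% as reported. All 12 markers of large pre-B cells were tested, with summed levels of 6076 and 5995 CPM in shMyb and 6632 and 6747 CPM in shLuc. The 14 stromal markers summed to 58.9 and 66.5 CPM in shMyb and 90.1 and 73.2 CPM in shLuc, of which 2 rose and 4 fell. The 12 myeloid markers summed to 10.0 and 12.1 CPM in shMyb and 6.53 and 5.14 CPM in shLuc, with 5 higher and with Elane and Ctsg at 0 in all libraries. The 11 T and NK cell markers summed to 129 and 121 CPM in shMyb and 124 and 126 CPM in shLuc, most of it Lck, with Cd4, Cd8a and Cd8b1 at 0, and the 6 erythroid markers were below 1 CPM in sum. The part of other cells in the results below was not tested.

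Promoter sequence is shown for the genes that moved apart or that carried the motif of interest. RefSeq promoter windows (build GRCm38.p6, 250 bases before to 50 after each start) were found for all 10 genes, 16 windows in all. They were searched on both strands for CACGTG, the E-box bound by Myc with its partner Max, for ACGTG, the core of the site bound by Hif1a, and for AACGG or AACTG, cores bound by Myb. Each CACGTG also holds ACGTG on either strand. Hk1 has 2 annotated starts, at chr10:62379859-62380158 and chr10:62340372-62340671, both on the minus strand. Hk2 has 1 (chr6:82774405-82774704, minus strand), and the first of 2 Ldha windows is at chr7:46845554-46845853 (plus strand). Capitals mark CACGTG and ACGTG on either strand.
Hk1, upstream start: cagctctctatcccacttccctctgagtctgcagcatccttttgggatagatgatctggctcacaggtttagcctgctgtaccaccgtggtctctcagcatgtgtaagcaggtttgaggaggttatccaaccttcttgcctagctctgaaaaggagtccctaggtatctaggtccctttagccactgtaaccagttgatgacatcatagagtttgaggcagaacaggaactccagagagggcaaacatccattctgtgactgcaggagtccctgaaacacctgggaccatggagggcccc
Hk1, downstream start: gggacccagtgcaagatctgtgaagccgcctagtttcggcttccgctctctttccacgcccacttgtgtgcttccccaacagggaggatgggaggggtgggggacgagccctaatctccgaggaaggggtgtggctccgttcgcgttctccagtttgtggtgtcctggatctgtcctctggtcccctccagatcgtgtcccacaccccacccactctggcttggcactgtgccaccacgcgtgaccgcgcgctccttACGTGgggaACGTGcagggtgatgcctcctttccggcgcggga
Hk2: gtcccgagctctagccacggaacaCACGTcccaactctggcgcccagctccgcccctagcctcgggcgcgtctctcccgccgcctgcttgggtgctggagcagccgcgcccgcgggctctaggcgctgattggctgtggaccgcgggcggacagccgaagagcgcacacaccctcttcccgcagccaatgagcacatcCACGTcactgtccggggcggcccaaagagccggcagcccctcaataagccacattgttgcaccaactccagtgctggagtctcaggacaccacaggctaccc
Ldha, upstream start: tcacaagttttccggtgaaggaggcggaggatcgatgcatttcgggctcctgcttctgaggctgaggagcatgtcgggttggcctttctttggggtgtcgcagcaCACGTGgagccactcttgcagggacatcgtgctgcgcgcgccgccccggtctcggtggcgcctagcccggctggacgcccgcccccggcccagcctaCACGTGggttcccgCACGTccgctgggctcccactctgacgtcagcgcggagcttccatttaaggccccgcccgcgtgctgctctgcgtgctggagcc
CACGTG stood in windows of 1 of the 10 genes, Ldha, where it occurred at 2 places. Among all 32851 mouse promoter windows of this length, 7.15% held it. ACGTG stood in windows of 5 of the 10 genes (Hk1, Hk2, Aldoa, Pgk1 and Ldha) and in 19.6% of all windows. AACGG or AACTG stood in windows of 5 of the 10 genes (Hk1, Tpi1, Pgk1, Eno1 and Ldha) and in 55.1% of all windows. The 10 genes had 16 windows between them, so counts per gene and shares per window are not the same quantity. Hk1, which fell, and Hk2, which rose, each had ACGTG at 2 places, in Hk1 in the downstream window alone, and counts per gene do not show which start was used.

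Of the 10 enzyme genes, Hk2 rose, Hk1, Pgk1, Eno1 and Ldha fell, and Gpi1, Pfkl, Pfkp, Aldoa and Tpi1 did not pass the test. The share called was 5 of 10, against 62.2% of all tested genes, and the median log2 fold change was -0.03, against 0.0048 over all tested genes. The groups did not overlap for the 5 called genes and overlapped for the other 5, while they did not overlap in 82.1% of all tested genes. The clearest change lay at the first step. Hk1 fell by 24.4% and Hk2 rose by 16.6%. With library totals alone 2 of the 10 genes were called higher and 2 lower, and of all 12610 tested genes 4667 higher and 3102 lower. These counts over all genes apply beside each count with library totals below. The direction of Ldha turned under a correction for the trend of fold change with expression level. Together the 10 genes held 0.511% and 0.475% of all counts in shMyb and 0.4842% and 0.5003% in shLuc.

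**Figure D1:**
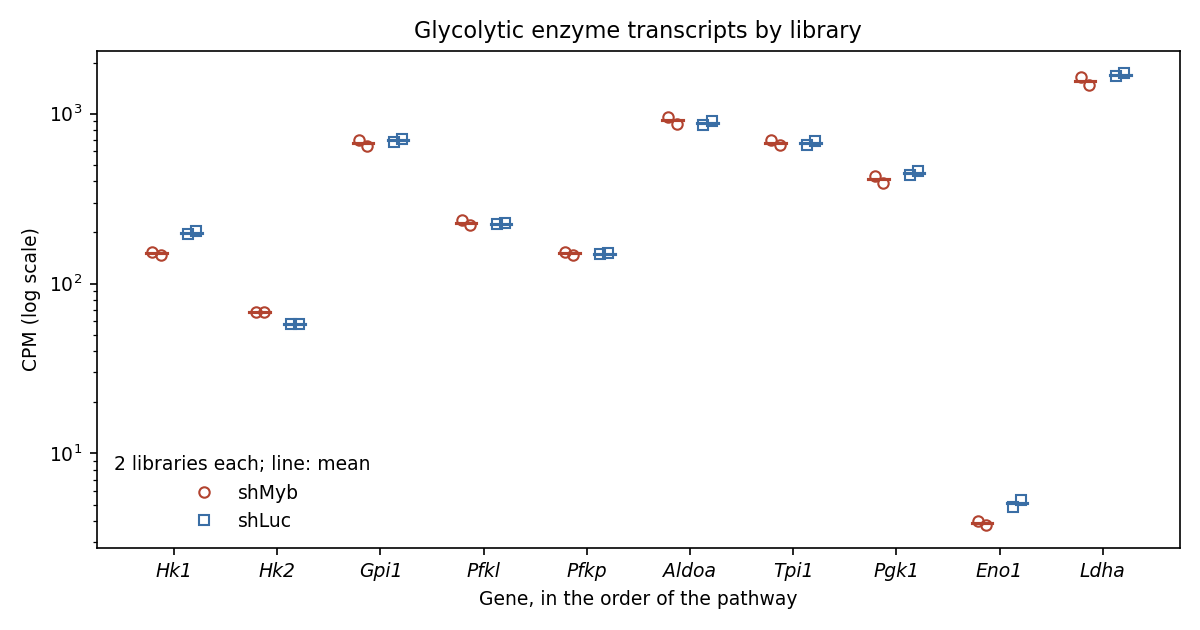
Level of each glycolytic enzyme gene in CPM on a log scale, in pathway order, with shMyb libraries as circles, shLuc libraries as squares and a line at each group's mean of 2. Hk1 and Hk2 separate by group in opposite directions, and Eno1 stands at about 4 to 5 CPM, far under its neighbours.

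Hk1, the hexokinase expressed in most tissues (chromosome 10, 62268855 to 62379908, minus strand), was at 153 and 148 CPM in shMyb and at 195 and 203 CPM in shLuc. Both shMyb libraries were below both shLuc libraries. The log2 fold change was -0.40 (95% interval -0.48 to -0.33, SE 0.037, edgeR adjusted p = 1.16e-09). Hk1 was called lower in all 17 other settings of the analysis, some of which change only the test or its threshold, at -0.55 to -0.34, and it was the one member called against a change of 1.2-fold, a test that 25.1% of all genes passed. The antisense gene Hk1os overlaps 1.84% of its exon length, and since the strand setting of the counting is not given, reads of this stretch cannot be assigned.

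Hk2, the hexokinase typical of muscle and of rapidly growing cells (chromosome 6, 82725025 to 82774454, minus strand), was at 67.9 and 67.7 CPM in shMyb and at 58.2 and 58.1 CPM in shLuc. The libraries of each group were nearly equal and the groups did not overlap. The log2 fold change was 0.22 (95% interval 0.14 to 0.31, SE 0.041, edgeR adjusted p = 5.34e-05). The call held in 16 of 17 other settings and ended in the test against 1.2-fold.

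The shMyb libraries held relatively more of the Hk2 isozyme. Per kilobase of exon, Hk2 made up 38.8% and 39.5% of hexokinase transcript in shMyb, against 29.9% and 29.0% in shLuc, while Hk3 stayed under 0.12%. The ratio of Hk2 to Hk1 per kilobase was 0.636 and 0.653 in shMyb and 0.426 and 0.410 in shLuc. On the log2 scale the ratio was higher by 0.63 in shMyb, and it lay between 0.60 and 0.65 when any one library was left out. The level of the ratio and the shares depend on the length used: the log2 ratio was -0.63 in shMyb and -1.26 in shLuc per kilobase of exon, and -1.51 in shMyb and -2.14 in shLuc by the length of the longest coding transcript. The difference between the groups is the same on either length by construction. The exact two-sided permutation test over libraries gave p = 0.333, the smallest value that 2 against 2 allows. Hexokinase as a whole, summed over Hk1, Hk2 and Hk3 per kilobase of exon, was at 29.0 ± 0.405 in shMyb and 33.1 ± 0.639 CPM per kb in shLuc (SD, n = 2 each), a ratio of 0.877. Unlike the difference in the Hk2 to Hk1 ratio, this ratio of sums depends on the length used. Without length scaling the sum was at 221 and 216 CPM in shMyb and 253 and 261 CPM in shLuc. Hk1 was above Hk2 in all libraries by counts, by exon length and by the length of the longest coding transcript.

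**Figure D2:**
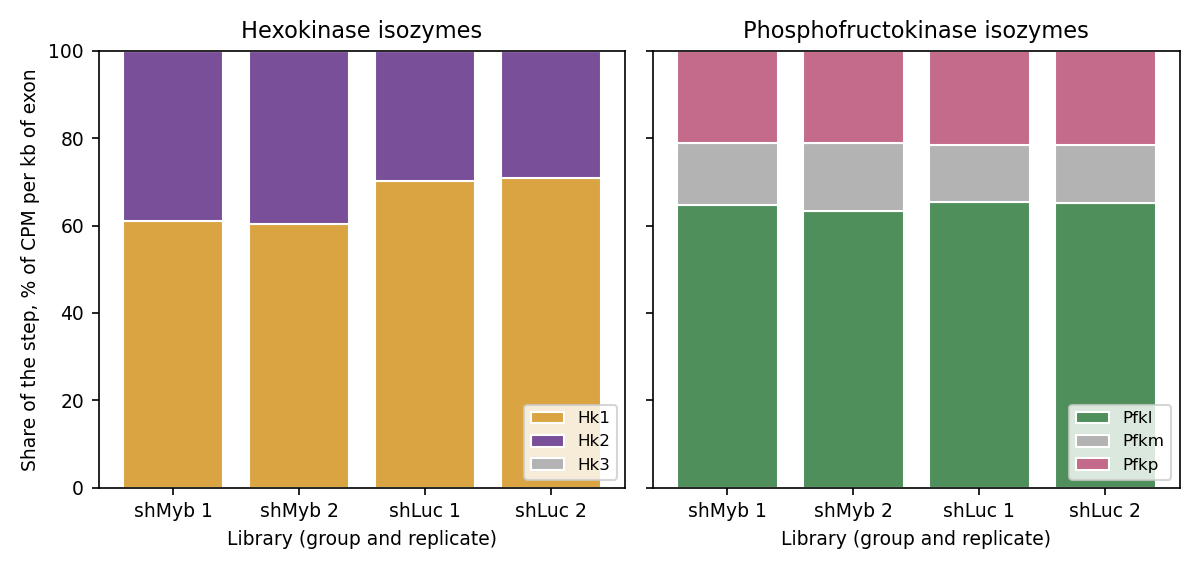
Share of each isozyme at the hexokinase and phosphofructokinase steps, in percent of the step's CPM per kilobase of exon, for each library. Hk2 holds 38.8% and 39.5% of the hexokinase bar in shMyb against 29.9% and 29.0% in shLuc. Pfkl and Pfkp differ little between libraries, and Pfkm holds 14.3% and 15.7% in shMyb against 12.9% and 13.3% in shLuc. The shares themselves depend on the length used.

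The next steps of the upper pathway differed by less than the spread between libraries or close to it. Gpi1, glucose phosphate isomerase (chromosome 7, 34201330 to 34230336, minus strand), was at 699 and 646 CPM in shMyb and at 685 and 707 CPM in shLuc. The shMyb libraries lay on either side of the lower shLuc library, and the log2 fold change was -0.05 (95% interval -0.13 to 0.03, edgeR adjusted p = 0.297). The gene was called lower without shMyb replicate 1 (-0.11) and with the correction for GC content and length (-0.10), and higher with the trend correction (0.078). It was also called lower with a crossed replicate block (-0.05), a fit chosen after seeing the data. The non-coding gene Gm26762 on the opposite strand overlaps 11.5% of its exon length.

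Phosphofructokinase is the committed step, and its transcripts come from separate genes named for liver (Pfkl), platelet (Pfkp) and muscle (Pfkm). Pfkl (chromosome 10, 77986947 to 78010083, minus strand) was at 235 and 220 CPM in shMyb and at 224 and 227 CPM in shLuc. Its log2 fold change was 0.013 (95% interval -0.066 to 0.091, edgeR adjusted p = 0.784). Pfkp (chromosome 13, 6579768 to 6648777, minus strand) was at 154 and 147 CPM in shMyb and at 149 and 151 CPM in shLuc, with a log2 fold change of 0.0027 (95% interval -0.074 to 0.080, edgeR adjusted p = 0.956). For both genes the shMyb libraries enclosed the shLuc libraries. The intervals leave room for changes of less than 0.1 on the log2 scale either way. Pfkl was called lower, at -0.14, after the correction for GC content and length. The ratio of Pfkp to Pfkl per kilobase was 0.326 and 0.333 in shMyb and 0.330 and 0.333 in shLuc, a log2 difference of -0.0096 (exact two-sided permutation p = 1). The level of this ratio also depends on the length used, at a log2 ratio of -1.60 in shMyb and -1.59 in shLuc per kilobase of exon, and -0.75 in shMyb and -0.74 in shLuc by the longest coding transcript. Pfkp shares 5.58% of its exon length with Pitrm1 on the opposite strand. The muscle gene Pfkm, not one of the 10, rose by 0.23 on the log2 scale (edgeR adjusted p = 0.00125), at 26.0 and 27.2 CPM in shMyb and 22.2 and 23.1 CPM in shLuc. Per kilobase of exon it made up 14.3% and 15.7% of phosphofructokinase transcript in shMyb and 12.9% and 13.3% in shLuc.

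Aldoa and Tpi1 split the hexose and interconvert the resulting trioses. Aldoa, aldolase A (chromosome 7, 126795234 to 126800751, minus strand), was at 954 and 871 CPM in shMyb and at 860 and 901 CPM in shLuc, and the groups overlapped. The log2 fold change was 0.051 (95% interval -0.038 to 0.14, edgeR adjusted p = 0.308). It was called higher in 4 of 17 other settings, among them library totals (0.11), the trend correction (0.20) and the fit without shMyb replicate 2 (0.11). Tpi1, triose phosphate isomerase (chromosome 6, 124810586 to 124814296, minus strand), was at 696 and 650 CPM in shMyb and at 658 and 695 CPM in shLuc. The shMyb libraries enclosed the shLuc libraries, and the log2 fold change was -0.0068 (95% interval -0.090 to 0.077, edgeR adjusted p = 0.895). With the trend correction Tpi1 was called higher, at 0.12.

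In the lower pathway, which makes ATP and lactate, the called members were all lower in shMyb. Pgk1, phosphoglycerate kinase, an enzyme that makes ATP (X chromosome, 106187100 to 106203699, plus strand), was at 429 and 392 CPM in shMyb and at 434 and 458 CPM in shLuc. The higher shMyb library lay just under the lower shLuc library. The log2 fold change was -0.12 (95% interval -0.21 to -0.028, SE 0.043, edgeR adjusted p = 0.0232). Ldha, the lactate dehydrogenase subunit of glycolytic tissues (chromosome 7, 46841475 to 46855627, plus strand), was at 1633 and 1479 CPM in shMyb and at 1665 and 1727 CPM in shLuc. Its groups did not overlap, and the gap between them was smaller than the gap between the shMyb libraries. The log2 fold change was -0.12 (95% interval -0.22 to -0.032, SE 0.044, edgeR adjusted p = 0.0195).

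The Pgk1 and Ldha calls ended when either shMyb replicate 2 or shLuc replicate 2 was left out, and in other settings. Without shMyb replicate 2 the values were -0.055 for Pgk1 (adjusted p = 0.321) and -0.056 for Ldha (adjusted p = 0.36), and without shLuc replicate 2 they were -0.089 (adjusted p = 0.12) and -0.11 (adjusted p = 0.0910). With library totals alone they were -0.056 and -0.062, neither called. With the trend correction Pgk1 was at -0.025 and Ldha at 0.062, neither called. With the GC and length correction Pgk1 was at -0.071 and not called. The Ldha call also ended with DESeq2 (adjusted p = 0.183).

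Eno1, enolase 1, stood apart from the rest in level. It was at 4.03 and 3.78 CPM in shMyb and at 4.83 and 5.35 CPM in shLuc, on 157 and 142 counts in shMyb and 193 and 233 counts in shLuc. The log2 fold change was -0.38 (95% interval -0.65 to -0.11, SE 0.13, edgeR adjusted p = 0.0139), and the groups did not overlap. The call ended without shMyb replicate 2 (-0.34, adjusted p = 0.0818), without shLuc replicate 2 (-0.32, adjusted p = 0.116) and with DESeq2 (adjusted p = 0.118). Per kilobase of its longest coding transcript Eno1 was at 1.93 CPM in shMyb and 2.51 CPM in shLuc, where Pgam1, the enzyme before it, was at 55.6 and 61.0 CPM per kb and Pkm, the enzyme after it, at 839 and 831 CPM per kb. Of the 50-base windows of the Eno1 transcript (chromosome 4, 150236721 to 150248879, plus strand), 72.2% stood letter for letter in a transcript of another gene, 70.5% in that of the retrogene Eno1b. No gene row carried the symbol Eno1b. Older symbols of this retrogene were not looked up among the rows, so it was not analysed here. The Eno1 level is therefore uncertain.

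Genes with much repeated sequence were not all counted at a low level. Pgk1 shared 68.0% of its windows with other transcripts, nearly all of them with Pgk1-rs7, and was counted at 225 CPM per kb in shMyb and 244 CPM per kb in shLuc. Gpi1 shared 25.3%, Pfkp 17.1%, Ldha 16.6%, Aldoa 13.5%, Tpi1 7.51% and Hk1 2.55%. Pfkl shared 0.054% and Hk2 none of 5464 windows. Windows of 100 bases gave 59.0% for Eno1 and 67.0% for Pgk1. Reads that fall in such windows may be split or lost, and how the counting treated them is not given in the sources used here.

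**Figure D3:**
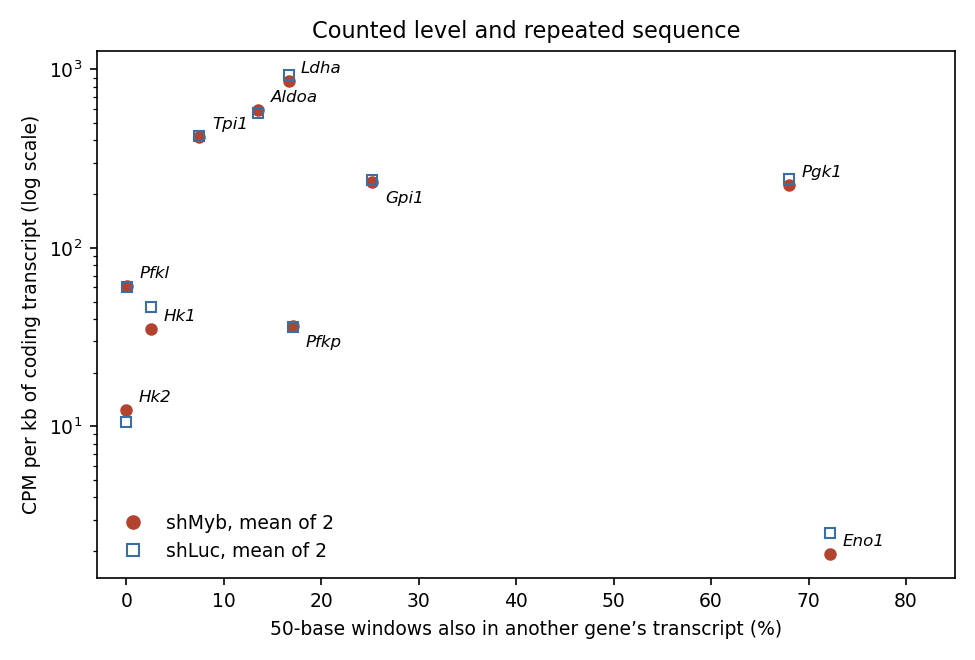
Level of each gene in CPM per kilobase of its longest coding transcript (log scale, means of 2 shMyb and 2 shLuc libraries) against the percent of its 50-base windows that also stand in another gene's transcript. Eno1 and Pgk1 share 72.2% and 68.0% of their windows, and in shMyb they stand at 1.93 and 225 CPM per kb.

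Between the members, levels per kilobase of the longest coding transcript ran in shMyb from Ldha (857 CPM per kb) through Aldoa (589), Tpi1 (419), Gpi1 (233), Pgk1 (225), Pfkl (61.0), Pfkp (36.3), Hk1 (35.1) and Hk2 (12.3) to Eno1 (1.93). In shLuc the levels were 934 CPM per kb for Ldha, 568 for Aldoa, 421 for Tpi1, 241 for Gpi1, 244 for Pgk1, 60.5 for Pfkl, 36.2 for Pfkp, 46.5 for Hk1, 10.5 for Hk2 and 2.51 for Eno1. Gpi1 and Pgk1 overlapped over their libraries in both groups. Hk1 and Pfkp overlapped in shMyb, and in shLuc both Hk1 libraries were above both Pfkp libraries. The other neighbours in this order did not overlap. Scaled by the exon union of each gene instead, Pgk1 stood above Gpi1 in both groups (183 and 104 CPM per kb in shMyb, 199 and 108 CPM per kb in shLuc), and Pfkp stood at 11.2 CPM per kb in both, below Hk1 in both. On either length, each hexokinase and phosphofructokinase gene had less transcript per kilobase than Gpi1, Aldoa, Tpi1, Pgk1 and Ldha.

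The trunk enzymes outside the 10 genes moved in the same range. Gapdh, glyceraldehyde phosphate dehydrogenase, was at 1130 and 1028 CPM in shMyb and 1195 and 1278 CPM in shLuc, and it fell by 0.20 on the log2 scale (SE 0.046, edgeR adjusted p = 0.00122). Pgam1, phosphoglycerate mutase, was at 101 and 95.9 CPM in shMyb and 108 and 108 CPM in shLuc, and it fell by 0.13 (SE 0.039, edgeR adjusted p = 0.00441). Pkm, pyruvate kinase, was at 2101 and 1981 CPM in shMyb and 1996 and 2047 CPM in shLuc, with a log2 fold change of 0.014 (edgeR adjusted p = 0.781). From Gapdh to Eno1 all 4 consecutive steps were called lower, a call that 31.7% of all tested genes had. The Pgk1 and Eno1 calls among them ended in several other settings, as given above. The Gapdh call ended with the trend correction (-0.033), and the Pgam1 call with library totals (-0.071) and without shMyb replicate 2 (-0.096). Pkm was called higher with the trend correction (0.22) and lower with the GC and length correction (-0.14). Of the windows of 50 bases, Gapdh shared 82.5%, Pgam1 41.5% and Pkm 34.4% with other transcripts.

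**Figure D4:**
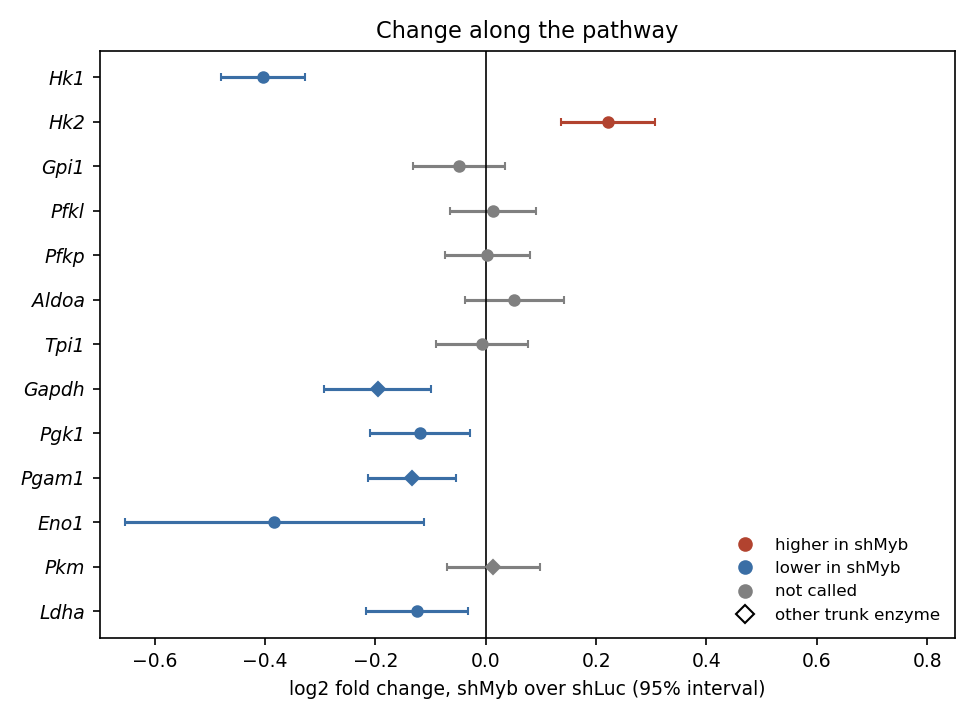
Log2 fold change of shMyb over shLuc with 95% intervals along the pathway, circles for the 10 genes and diamonds for Gapdh, Pgam1 and Pkm. Hk2 alone is called higher (0.22), Hk1 is at -0.40, the stretch from Gapdh to Eno1 lies below 0, and Gpi1 to Tpi1 lie around 0.

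Abundant genes were lower in shMyb in general, and several of these enzyme genes are among those with the most counts. Over the 293 tested genes above 500 CPM the median log2 fold change was -0.20. It was -0.055 over 2267 genes from 100 to 500 CPM and -0.031 over 6085 genes from 10 to 100 CPM, and below that it was 0.21 over 2292 genes from 1 CPM and 0.52 over 1673 genes under 1 CPM. Gpi1, Tpi1, Aldoa and Ldha, all above 500 CPM, were at -0.05, -0.0068, 0.051 and -0.12. Each of these values was above the median of its class. Gapdh, outside the 10 and also above 500 CPM, was at -0.196, close to that median. From 100 to 500 CPM, Hk1 and Pgk1 were below their class median and Pfkl and Pfkp above it. With the trend removed, Hk2, Gpi1, Aldoa and Tpi1 were called higher and Hk1 and Eno1 lower, and the median of the 10 genes was 0.064, against -0.005 over all tested genes.

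**Figure D5:**
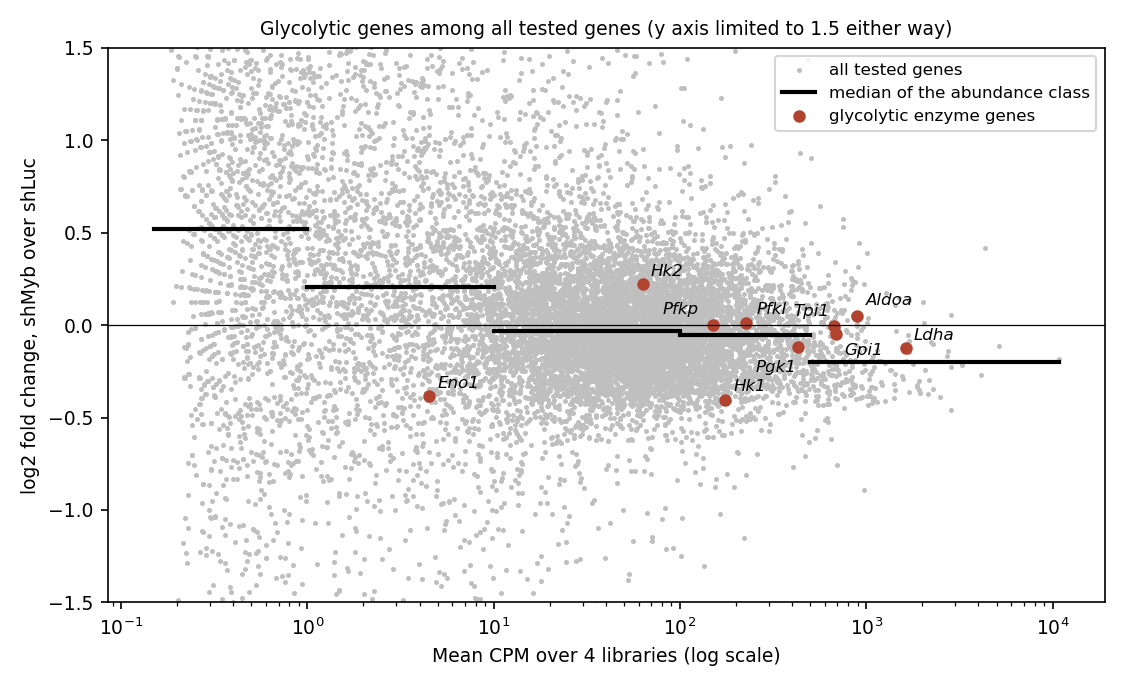
Log2 fold change of shMyb over shLuc against mean CPM (log scale) for all tested genes in grey, with the 10 glycolytic enzyme genes in red and black lines at the median of each abundance class. The class medians go from 0.52 under 1 CPM to -0.20 above 500 CPM, and Gpi1, Tpi1, Aldoa and Ldha lie above the line of their class.

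Aldoc, Ldhb and Pfkm, lesser isozyme genes of their steps, rose, while Pfkp, counted below Pfkl, was not called. Of 20 other isozymes and step genes found by symbol in the files, 9 were tested, and 3 rose, 2 fell and 4 were not called (median 0.061). Of all tested genes 30.6% were called higher and 31.7% lower. With library totals 4 rose and 1 fell. Aldoc, the aldolase of brain, rose by 0.72 (SE 0.071, edgeR adjusted p = 4.09e-09), at 20.3 and 18.7 CPM in shMyb and 11.7 and 12.0 CPM in shLuc. Ldhb, the lactate dehydrogenase subunit of oxidative tissues such as heart, rose by 0.72 as well (SE 0.079, edgeR adjusted p = 2.47e-08), at 14.7 and 14.5 CPM in shMyb and 8.69 and 9.04 CPM in shLuc. Per kilobase of exon, Ldhb was 1.86% and 2.02% of lactate dehydrogenase in shMyb against 1.09% and 1.09% in shLuc, and Aldoc was 1.86% and 1.88% of aldolase in shMyb against 1.204% and 1.172% in shLuc.

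Transport of glucose and lactate changed in both directions, with 3 genes higher, 4 lower and 2 not called of 9 tested. The shares over all tested genes were 30.6% higher and 31.7% lower. Slc2a1, the glucose carrier GLUT1, fell by 0.34 (SE 0.045, edgeR adjusted p = 4.45e-07), at 61.4 and 62.3 CPM in shMyb and 74.8 and 82.1 CPM in shLuc. Slc16a1, the lactate carrier MCT1, fell by 0.42 (SE 0.039, edgeR adjusted p = 1.81e-09), at 276 and 255 CPM in shMyb and 350 and 359 CPM in shLuc. Slc16a3, the lactate exporter MCT4, rose by 0.78 (SE 0.065, edgeR adjusted p = 4.80e-09), at 38.4 and 33.5 CPM in shMyb and 21.8 and 20.3 CPM in shLuc. The hexose carrier genes Slc2a6 and Slc2a8 rose by 1.23 and 0.81, with Slc2a6 at 8.73 and 8.84 CPM in shMyb and 3.33 and 4.15 CPM in shLuc. With library totals the list had 4 higher and 4 lower.

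Pfkfb enzymes make and remove a second fructose bisphosphate, an activator of phosphofructokinase. Of 4 tested genes 2 rose and 1 fell, beside 30.6% higher and 31.7% lower of all tested genes. Pfkfb3 fell by 0.32 (SE 0.038, edgeR adjusted p = 9.18e-08), at 128 and 124 CPM in shMyb and 154 and 160 CPM in shLuc. Pfkfb4 and Pfkfb2 rose by 0.57 and 0.24, and the Pfkfb2 call ended without shMyb replicate 2 (0.14).

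Around the pathway, 9 of 13 tested genes for pyruvate entry into mitochondria were called lower and 2 higher (median -0.20). Of all tested genes 31.7% were called lower and 30.6% higher, and these shares apply beside each list below. The pyruvate carrier subunit gene Mpc2 fell by 0.36, the kinase gene Pdk3, whose product inhibits pyruvate dehydrogenase, by 0.37, and the opposing phosphatase gene Pdp2 by 0.38. Pdk2, another of the inhibitory kinases, rose by 1.33, at 11.2 and 10.6 CPM in shMyb and 4.41 and 4.27 CPM in shLuc. Of 8 pentose phosphate genes 5 fell and 1 rose (median -0.13): Tkt, transketolase, fell by 0.27, Rpe by 0.17 and G6pdx, the entry enzyme, by 0.17, while Rpia rose by 0.26. With library totals 3 rose and 3 fell in that list, and the Rpe call ended with the GC and length correction (-0.011). Of 9 tested shuttle genes 4 fell and 5 were not called (median -0.096), with Mdh2 at -0.26, Gpd2 at -0.28, Got2 at -0.23 and Gpd1l at -0.096. The Gpd1l call ended in 8 other settings.

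In glycogen and hexose side branches 7 of 16 genes fell and 3 rose (median -0.052), and with library totals 5 fell and 4 rose. The glycogen phosphorylase gene Pygm fell by 0.85 (SE 0.046, edgeR adjusted p = 3.32e-14), at 32.3 and 33.1 CPM in shMyb and 59.4 and 58.6 CPM in shLuc. Gbe1, the glycogen branching enzyme, fell by 0.42 and Gfpt1, the entry enzyme of hexosamine synthesis, by 0.31. Of 4 tested gluconeogenesis genes 2 rose and 1 fell (median 0.39), with Pcx, pyruvate carboxylase, at 0.75, Fbp2 at 1.17 on about 1 CPM in shMyb, and G6pc3 at -0.18. With library totals 3 of them rose and the G6pc3 call ended (-0.12).

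Of 16 tested genes that control glycolysis by transcription or oxygen, 8 rose and 3 fell (median 0.15). Myc fell by 0.57 (SE 0.037, edgeR adjusted p = 1.73e-12), at 225 and 214 CPM in shMyb and 325 and 324 CPM in shLuc. Hif1a rose by 0.36 (SE 0.037, edgeR adjusted p = 1.22e-08), at 227 and 215 CPM in shMyb and 172 and 174 CPM in shLuc. Txnip, which restrains glucose uptake, rose by 0.97 (SE 0.041, edgeR adjusted p = 1.15e-15), at 254 and 236 CPM in shMyb and 122 and 128 CPM in shLuc. Egln3, an oxygen sensor that marks Hif1a for degradation and is itself induced by low oxygen, fell by 0.76, at 19.9 and 20.5 CPM in shMyb and 33.7 and 34.8 CPM in shLuc. Genes of the hypoxia response outside the pathway had no common direction, with 8 higher, 8 lower and 1 not called of 17 tested (median 0.051), and with library totals 8 were higher and 5 lower. Plin2 fell by 0.75 and Ndrg1 by 0.58, while P4ha1 rose by 0.26. Across all 10 companion lists, 31 of 103 tested genes were higher and 43 lower, against 30.6% higher and 31.7% lower of all tested genes. With library totals alone 37 companion genes were higher and 33 lower, where 4667 of all 12610 tested genes were higher and 3102 lower.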

How the data were processed

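Per the submitters' processing notes, FastQC, STAR, HTSeq and DESeq2 were used with the mm10 build, without versions or roles. The deposited files hold unnormalized counts for 23420 gene symbols, with a file for each library. The sources used here do not give the annotation, the strand setting or the handling of reads with several matches. Per the labels' protocols, the library kit keeps strand. From these counts, edgeR 4.0.16 in R 4.3.3 tested 12610 genes kept by filterByExpr (minimum count 10), with TMM scaling, glmQLFit (robust=TRUE), glmQLFTest and no term beside group. A gene was called where its p, after Benjamini-Hochberg adjustment across the tested genes, was below 0.05. An SE is the log2 fold change over the square root of F. CPM use TMM-scaled totals, and a count of 0 allows up to 3 counts, or 0.0689 to 0.0799 CPM, which covers counting error only. In each file 27 symbols had been turned into dates, and those rows stayed in the totals. Exon length, coordinates (1-based), GC content and repeated windows come from GENCODE M21, which uses GRCm38, another name of mm10; there 21751 symbols matched by name and 1297 through an older symbol. The loess trend correction (span 0.3) and the spline fit on GC content and length (5 degrees of freedom each, 99.2% of tested genes) entered as offsets, as alternatives beside RLE, library totals, other filters, robust=FALSE, DESeq2 1.42.0, voom in limma 3.58.1, a replicate block, a stricter threshold, glmTreat at 1.2-fold and each library left out. Libraries of a group differed by more than counting noise (chi-square per degree of freedom 4.06 in shMyb and 3.68 in shLuc). The 10 genes and the companion lists were chosen with earlier results of these data known. Genes outside the 10 were named by rule: from each list up to 4 called genes by smallest p that reached 1 CPM on average in a group, and Gapdh, Pgam1, Pkm, Slc2a1, Myc, Hif1a and Myb in any case. A companion gene that the naming rule selects is counted in its list but not reported here by name.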

Additional observations from a re-analysis of the deposited data

How the results depend on the processing

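The count of members called, 1 higher and 4 lower, was the same with RLE, with no filter, with a filter of 1 CPM in 2 libraries, with robust=FALSE and with limma-voom. It was 2 higher and 2 lower with library totals, 1 and 2 with DESeq2, 4 and 2 with the trend correction, 1 and 5 with the GC and length correction, 1 and 1 at an adjusted p below 0.01, and 0 and 1 against 1.2-fold. Leaving out 1 library gave 1 to 2 higher and 1 to 5 lower. In those fits a lone library is assumed to vary like the other group. With the replicate block the members were 1 higher and 3 lower, the call lost being that of Ldha (-0.13, adjusted p = 0.0722), and 3632 of all genes were higher and 3709 lower. Deviations of same-numbered libraries correlated at -0.19 across genes. With 2 libraries in each group this value cannot show which libraries, if any, were handled together, and the labels give no batch. A crossed block, chosen after seeing the data, gave 2 members higher and 5 lower, and 4258 of all genes higher and 4335 lower. A shared batch was not tested. Against 1.2-fold, 13 companion genes were higher and 11 lower, and 1893 of all genes were higher and 1267 lower. Over all genes, leaving out 1 library gave 3084 to 3569 higher and 3505 to 3926 lower, and among companion genes 26 to 28 higher and 37 to 45 lower.

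Log2 fold changes near 0 changed sign. With 1 library left out they ran from -0.11 to 0.0053 for Gpi1, -0.042 to 0.059 for Pfkl, -0.036 to 0.033 for Pfkp, -0.022 to 0.11 for Aldoa, -0.067 to 0.041 for Tpi1 and -0.034 to 0.054 for Pkm. Gpi1 was at 0.014 and Tpi1 at 0.056 with library totals. With no filter Pfkl was at -0.0028, Pfkp at -0.013 and Pkm at -0.0018, and with the 1 CPM filter Tpi1 was at 0.0051. With the trend correction Gpi1 was at 0.078, Tpi1 at 0.12 and Ldha at 0.062. With the GC and length correction Pfkl was at -0.14, Pfkp at -0.011, Aldoa at -0.039 and Pkm at -0.14. The cause was not tested.

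The log2 ratio of Hk2 to Hk1 was -0.63 in shMyb and -1.26 in shLuc per kilobase of exon, -1.15 and -1.77 by counts, and -1.51 and -2.14 by the longest coding transcript, a length added after seeing the data. That of Pfkp to Pfkl was -1.60 in shMyb and -1.59 in shLuc, then -0.60 and -0.59, and -0.75 and -0.74. Its difference, -0.0096, ran from -0.026 to 0.0064 with 1 library left out, and that of Hk2 to Hk1 from 0.60 to 0.65.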

Other observations

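All 10 enzyme genes were lower in shMyb replicate 2 than in shMyb replicate 1, and so were Gapdh, Pgam1 and Pkm. Of all tested genes 52.8% were, and of the 293 above 500 CPM 79.2% were. In shLuc 9 of the 10 enzyme genes were lower in replicate 1 than in replicate 2, against 50.5% of all tested genes and 78.8% of those above 500 CPM. Ldha was the member with the widest such gap by CPM, at 1633 and 1479 CPM in shMyb. The small changes of Pgk1 and Ldha are of the size of these gaps between libraries of one group.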
